A study of Mus musculus with 16 samples.

Results

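The 27 genes described here make, sense, take up or move cholesterol. They were chosen by symbol from a list of the pathway, with earlier results of these data known. All 27 were found among the 32285 genes counted. The list holds 8 enzymes of the mevalonate steps, 11 of the squalene and sterol steps, 5 regulators and 3 transport proteins. It is not the whole pathway. Single nuclei of mouse hippocampus were sequenced in 16 libraries, 4 of each of 4 groups, from female mice aged 9 months. Libraries with both copies of Ch25h were labelled Ch25h+/+ Tau+ or Ch25h+/+ Tau-, and those without it Ch25h-/- Tau+ or Ch25h-/- Tau-. Ch25h encodes cholesterol 25-hydroxylase, which turns cholesterol into 25-hydroxycholesterol, and the design asks how its loss and the presence of Tau act together. The labels give neither the form of tau nor the promoter that drives it, and no strain is named. They do not say whether each library is 1 mouse, so p-values measure the spread between libraries. The values are counts of unique molecular identifiers (UMIs), each standing for 1 captured RNA molecule, read near the 3′ end of nuclear RNA. A level is given as counts per 1000000 UMIs (CPM) of the genes high enough to test in that cell class, in that library. Unless stated otherwise it is scaled by the trimmed mean of M values (TMM). Fewer cells of a kind and less RNA per cell cannot be told apart in a library total, and a level in nuclei is not a level in whole cells.

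Cholesterol is built from acetyl-CoA. The mevalonate steps end in farnesyl pyrophosphate, the squalene steps join it into squalene, and the sterol steps close the rings and trim lanosterol to cholesterol. The transcription factor SREBP2, the product of Srebf2, switches most of these enzymes on: when sterol is scarce, SCAP carries it from the endoplasmic reticulum for cleavage, and when sterol or 25-hydroxycholesterol is plentiful, the INSIG proteins hold SCAP back. In the adult brain cholesterol is made locally, with astrocytes supplying neurons and oligodendrocytes using it for myelin. Cholesterol taken up in lipoproteins leaves the lysosome through NPC2 and NPC1.

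The 16 libraries held between 51270831 and 84870650 UMIs each, and 136828 nuclei were kept, from 7601 to 10567 per library. Of these, 117597 fell into 8 classes named from marker genes: microglia, astrocytes, oligodendrocytes and their precursors, and, among neurons, dentate gyrus (DG) granule, Cornu Ammonis (CA) pyramidal, other excitatory and inhibitory ones. Of 74 class markers, 69 were over 2-fold higher in their own class than in the others. Library pairs shared between 10 and 40 nucleus barcodes, at most 0.465% of the smaller library. Over the groups together, replicates 1 and 2 differed from replicates 3 and 4 in 7.42% to 17.6% of genes per class. The labels name no batch, and replicate numbers here follow accession order. The Ch25h transcript itself was rare: 133 UMIs in the 8 libraries labelled Ch25h+/+ (8 to 36 per library) and 173 in the 8 labelled Ch25h-/- (10 to 30). These counts do not separate the labelled genotypes. The kit reads the 3′ end, and whether the removed stretch covers it is not given in the sources used here, so the genotypes are used as labelled.

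Promoters of 22 of the 27 genes were read from RefSeq (GRCm38.p6) as the 250 bases before to 50 after the start. The 5 shown are those of Idi1, Sc5d, Cyp51 and Npc2, on which results below turn, and of Hmgcs1, where TCACNCCAC was found. The 250 bases before the start are printed 5′ to 3′ on the gene's own strand. Capitals mark TCACNCCAC (1 form of the sterol regulatory element bound by SREBP) and CCAAT (the box bound by NF-Y), on either strand.
Hmgcs1, chr13:119690101-119690350, plus strand: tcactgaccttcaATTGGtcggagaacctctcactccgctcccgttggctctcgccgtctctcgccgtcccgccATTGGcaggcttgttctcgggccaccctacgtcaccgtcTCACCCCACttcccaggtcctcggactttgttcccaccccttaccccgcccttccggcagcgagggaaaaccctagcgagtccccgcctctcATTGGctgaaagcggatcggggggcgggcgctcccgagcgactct
Idi1, chr13:8885356-8885605, plus strand: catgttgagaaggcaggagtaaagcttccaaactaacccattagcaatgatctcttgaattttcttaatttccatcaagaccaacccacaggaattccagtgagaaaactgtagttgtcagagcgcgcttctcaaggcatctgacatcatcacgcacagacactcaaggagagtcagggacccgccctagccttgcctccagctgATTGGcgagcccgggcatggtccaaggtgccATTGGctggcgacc
Cyp51, chr5:4104698-4104947, minus strand: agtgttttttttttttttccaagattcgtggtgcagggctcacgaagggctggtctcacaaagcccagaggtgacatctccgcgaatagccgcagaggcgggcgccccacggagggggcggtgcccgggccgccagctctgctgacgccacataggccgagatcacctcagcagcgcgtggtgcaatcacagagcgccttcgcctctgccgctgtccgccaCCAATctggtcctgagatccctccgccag
Sc5d, chr9:42264301-42264550, minus strand: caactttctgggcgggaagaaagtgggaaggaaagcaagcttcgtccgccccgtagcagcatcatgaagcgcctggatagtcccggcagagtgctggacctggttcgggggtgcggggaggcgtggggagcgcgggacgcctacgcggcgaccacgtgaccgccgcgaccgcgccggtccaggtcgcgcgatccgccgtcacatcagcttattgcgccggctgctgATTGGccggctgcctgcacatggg
Npc2, chr12:84773113-84773362, minus strand: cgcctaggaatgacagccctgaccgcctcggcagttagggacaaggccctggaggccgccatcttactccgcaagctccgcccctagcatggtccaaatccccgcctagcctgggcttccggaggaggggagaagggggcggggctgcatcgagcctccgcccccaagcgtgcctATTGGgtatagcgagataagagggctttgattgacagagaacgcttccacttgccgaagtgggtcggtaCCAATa
Only Hmgcs1 held TCACNCCAC, at 137 bases before the start. Other forms of the sterol regulatory element were not searched, so a promoter without these letters may still hold one. The letters TCACNCCAC were thus in 4.55% of the 22 genes, against 1.44% of all 27025 genes in the table. A gene counts if a promoter at any of its RefSeq starts holds the letters, and 5 of the 22 have several starts. CCAAT was found for 20 of the 22 genes (90.9%), against 41.1% of all genes. GGGCGG, the GC box bound by Sp1, was also found for 20 (90.9%, against 38.2%), and CACGTG, the E-box, for 5 (22.7%, against 8.09%). Fdps, Fdft1, Sqle, Stard4 and Npc1 were not among the 22. CCAAT stood in the promoter of Npc2, which rose in microglia, as in those of Idi1 and Sc5d, which fell in astrocytes. These are letter matches on both strands, not matched for base composition, and not measured binding.

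Among the 8 classes, astrocytes held the highest level of 20 of the 27 genes. Microglia were highest for 4 (Ggps1, Insig2, Npc1 and Npc2) and oligodendrocytes for 3 (Fdps, Ebp and Scap). Fdps was all but level, with 23.6 CPM in oligodendrocytes and 23.4 in astrocytes (higher in 10 of 16 libraries), and so was Ebp, with 16.2 and, in microglia, 15.9 (8 of 16). Acat2 had 19.1 CPM in astrocytes and 17.9 in oligodendrocyte precursors (8 of 16), and Npc1 146 in microglia and 142 in oligodendrocytes (8 of 16). Among these 8 classes the lowest level was in microglia for 11 genes, in DG granule neurons for 8 and in CA pyramidal neurons for 5. Smaller named classes were not ranked. Some genes were higher there, pooled over libraries without TMM scaling. Npc2 had 172 CPM in border macrophages, Insig2 85.8 in fibroblasts, Ggps1 143 in mural cells and Srebf1 60.8 in ependymal cells. Acat2 had 24.8 in newly formed oligodendrocytes, and Pmvk (23.6), Ebp (31.5) and Stard4 (31.5) were higher in endothelial cells, on 12 to 17 UMIs each. Hmgcs1, Msmo1, Srebf2 and Npc1 were not higher in any of them. Classes came from clustering all genes but the 27 and other genes of the pathway, so these levels are a description without a test. By role, 16 of the 19 synthesis enzymes peaked in astrocytes, and 1 of the 3 transport genes did.

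**Figure D1:**
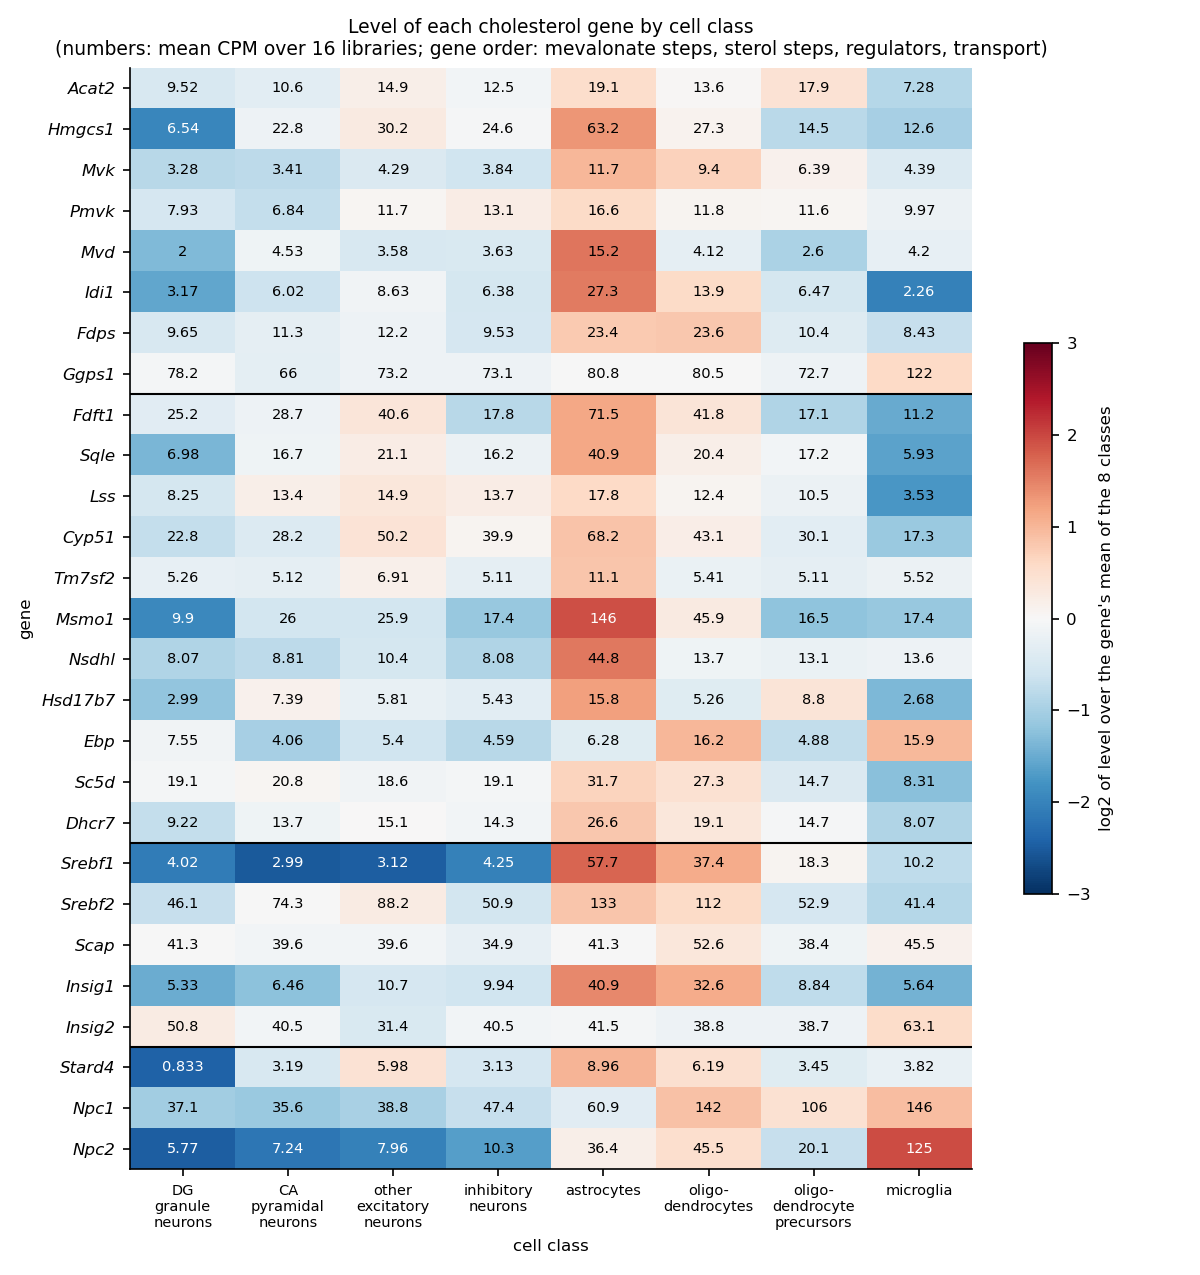
Level of each of the 27 genes (vertical axis, grouped by role) in each of 8 cell classes (horizontal axis); the number in a cell is the mean CPM over 16 libraries, and colour is the log2 of that level over the mean of the gene in the 8 classes. The astrocyte column is highest for 20 of the 27 genes, and Npc2 and Npc1 are highest in microglia.

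Msmo1, which acts after Cyp51 in removing methyl groups from the sterol ring, had 146 CPM in astrocytes, 45.9 in oligodendrocytes and 9.9 in DG granule neurons. Nsdhl, which acts after it, had 44.8 CPM in astrocytes and 13.7 in oligodendrocytes, the next class. Mvd, which makes isopentenyl pyrophosphate, had 15.2 CPM in astrocytes and 4.53 in CA pyramidal neurons. In all 3 cases astrocytes were above the next class in 16 of 16 libraries. Srebf1, the regulator best known for fatty acid synthesis, spanned 19.3-fold, from 57.7 CPM in astrocytes to 2.99 in CA pyramidal neurons. Npc2, the lysosomal cholesterol carrier, spanned 21.7-fold within the 8 classes, from 125 CPM in microglia to 5.77 in DG granule neurons. Microglia were above oligodendrocytes in 16 of 16 libraries. Border macrophages, not among the 8, had 172 CPM pooled over libraries, on 108 UMIs.

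The order of the 8 classes is given for 5 genes. Each value is a mean ± SD over 16 libraries (n = 16), and neighbours closer than the larger of their SDs are called close. Srebf2, the master regulator, had 133 ± 15.6 CPM in astrocytes, 112 ± 13.4 in oligodendrocytes, 88.2 ± 13.2 in other excitatory neurons and 74.3 ± 9.08 in CA pyramidal neurons. It had 52.9 ± 8.42 in oligodendrocyte precursors, 50.9 ± 4.45 in inhibitory neurons, 46.1 ± 5.2 in DG granule neurons and 41.4 ± 11.3 in microglia, and these last 4 were close. Hmgcs1, which makes the precursor of mevalonate, had 63.2 ± 23.3 CPM in astrocytes, then 30.2 ± 5.9 in other excitatory neurons, 27.3 ± 8.66 in oligodendrocytes, 24.6 ± 5.37 in inhibitory and 22.8 ± 6.32 in CA pyramidal neurons, each close to the next after astrocytes. It was lowest in oligodendrocyte precursors (14.5 ± 6.52), microglia (12.6 ± 2.58) and DG granule neurons (6.54 ± 1.68), the first pair being close.

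Sqle, which puts oxygen on squalene, had 40.9 ± 13.6 CPM in astrocytes. It was followed by 5 classes in close steps: other excitatory neurons (21.1 ± 3.77), oligodendrocytes (20.4 ± 5.53), precursors (17.2 ± 6.78), CA pyramidal neurons (16.7 ± 3.42) and inhibitory neurons (16.2 ± 2.63). DG granule neurons had 6.98 ± 1.24 and microglia 5.93 ± 3.58, where only 48 UMIs were counted in all. The free RNA of empty barcodes accounts for at most an estimated 51.7% of those 48. Insig1, the INSIG that SREBP2 itself induces, was high in astrocytes (40.9 ± 14.6) and close to that in oligodendrocytes (32.6 ± 5.48). The other 6 classes ran in close steps from 10.7 ± 3.03 CPM in other excitatory neurons to 5.33 ± 1.24 in DG granule neurons. Npc1, the membrane protein that exports cholesterol from the lysosome, had a different order: 146 ± 29.6 CPM in microglia and, close to it, 142 ± 25 in oligodendrocytes, then 106 ± 20.6 in precursors, 60.9 ± 13 in astrocytes and 47.4 ± 5.69 in inhibitory neurons. Other excitatory (38.8 ± 4.31), DG granule (37.1 ± 4.21) and CA pyramidal neurons (35.6 ± 3.81) were close at the foot of that order. The ranking was also made from CPM of all UMIs of a class without TMM scaling, which changes both the denominator and the scaling. With or without free RNA subtracted, Npc1 was then highest in oligodendrocytes and the highest class of the other 26 genes stayed. In nuclei of 1000 or more UMIs alone, on that same scale, Npc1 moved likewise, Fdps was highest in astrocytes and the other 25 genes stayed.

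Tau+ libraries were compared with Tau- libraries in each class with edgeR's quasi-likelihood test, averaged over both Ch25h genotypes, and p-values were adjusted over all genes of the class by the Benjamini-Hochberg method; a gene is called at an adjusted p under 0.05. Of 183 tests of a member in a class, 4 were called. In astrocytes Idi1, Sqle and Sc5d fell in Tau+, and in microglia Npc2 rose. Over all genes and classes 1.2% of tests were called, 3.3% in astrocytes and 8.94% in microglia. Of the members tested, 3 of 27 were called in astrocytes and 1 of 6 in microglia. By direction, in CA pyramidal neurons 24 of 27 members had lower estimates in Tau+, with a median log2 fold change of -0.31, and in astrocytes 22 of 27, with a median of -0.41. Of all genes tested, 49.8% were lower in CA pyramidal neurons and 50.6% in astrocytes. Since the members were chosen with earlier results known, these shares and those at an unadjusted p below are descriptions, not tests of the list. Every log2 fold change below is Tau+ minus Tau- unless another pair is named.

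**Figure D2:**
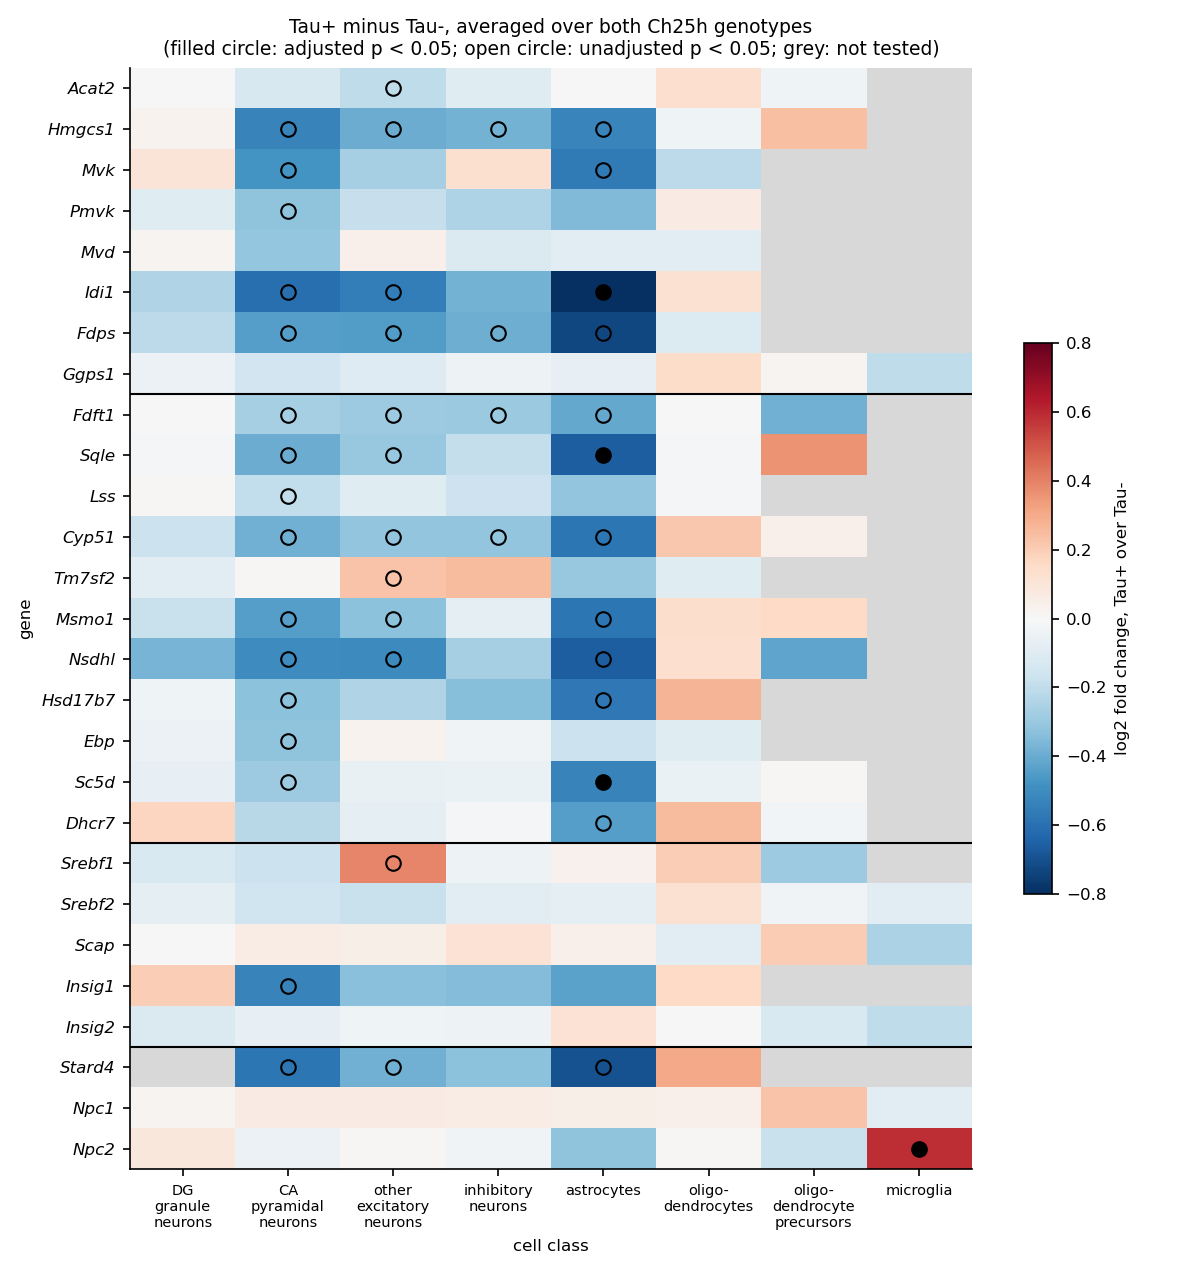
Log2 fold change of each of the 27 genes (vertical axis, grouped by role), Tau+ minus Tau-, averaged over both Ch25h genotypes, in each of 8 classes (horizontal axis); blue is lower in Tau+, red is higher and grey was too low to test. Filled circles mark an adjusted and open circles an unadjusted p under 0.05. The synthesis enzymes are mostly blue in astrocytes and in CA pyramidal neurons, and mixed in oligodendrocytes, where 10 of 27 genes are lower.

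Without the adjustment for many genes, 16 of the 27 members in CA pyramidal neurons had a lower level at p under 0.05 and none a higher one; 5.66% of all genes there were lower at that p. In astrocytes 13 of 27 were lower and none higher, against 6.83% of all genes. In other excitatory neurons 10 of 27 were lower and 2 higher (Srebf1 and Tm7sf2), against 4.28% lower and 3.13% higher over all genes, and in inhibitory neurons 4 of 27 were lower, against 4.29%. No member was lower at that p in DG granule neurons (26 tested, background 4.86%), oligodendrocytes (27 tested, 4.91%), oligodendrocyte precursors (16 tested, 3.2%) or microglia (6 tested, 10.1%). Of the 16 members lower in CA pyramidal neurons and the 13 lower in astrocytes none passed the adjusted threshold other than the 3 named. Replicates 1 and 2 alone gave 6 lower members in astrocytes, and replicates 3 and 4 alone gave 10 in CA pyramidal neurons. The other set of replicates of each class, and the shares of all genes in these sets, are not given here. The medians of the 27 genes lay between -0.52 and -0.34 in astrocytes and between -0.35 and -0.25 in CA pyramidal neurons over 24 other ways of running the test, while the median over all genes never moved beyond 0.08.

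Idi1 (chr13:8885501-8892451, plus strand, GRCm38), the isomerase that makes the reactive isoprene unit, had in astrocytes 9.7, 21.2, 26.9 and 13.4 CPM in the 4 Ch25h+/+ Tau+ libraries and 27.5, 10.9, 24.2 and 25.1 in Ch25h-/- Tau+. Its levels in the Tau- libraries were 37.2, 28.9, 32.9 and 31.4 CPM in Ch25h+/+ and 51.9, 26.8, 29.1 and 39.9 in Ch25h-/-. Of the 8 Tau+ libraries, 6 lay below every Tau- library, and the other two overlapped the lowest of them. The means were 19.9 ± 7.39 CPM in Tau+ and 34.8 ± 8.18 in Tau- (SD, n = 8 each), a log2 fold change of -0.79 (SE 0.21, edgeR adjusted p = 0.0427). The call held when Ch25h+/+ Tau+ replicate 3, Ch25h-/- Tau+ replicate 1 or 3, or Ch25h-/- Tau- replicate 2 or 3 was left out, and was lost without any 1 of the other 11 libraries, with adjusted p from 0.011 to 0.0904. It was also lost in replicates 1 and 2 alone (adjusted p = 0.364) and in replicates 3 and 4 alone (0.296).

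Sqle (chr15:59315077-59331192, plus strand), which acts at a step known to limit flux through the pathway, had in astrocytes 20.5, 35.8, 34.2 and 27.2 CPM in Ch25h+/+ Tau+ and 44.7, 18, 40.1 and 32.4 in Ch25h-/- Tau+. The Tau- libraries had 42, 47.8, 54.7 and 53.8 CPM in Ch25h+/+ and 69.4, 33.5, 46.7 and 54.1 in Ch25h-/-. Only 4 of 8 Tau+ libraries were below every Tau- library, and Ch25h-/- Tau- replicate 2, at 33.5, and Ch25h+/+ Tau- replicate 1, at 42, lay within the Tau+ range, which reached 44.7. The means were 31.6 ± 9.23 and 50.3 ± 10.6 CPM (SD, n = 8 each), a log2 fold change of -0.66 (SE 0.17, edgeR adjusted p = 0.0408). Leaving out Ch25h+/+ Tau+ replicate 2 or 3, Ch25h+/+ Tau- replicate 1, Ch25h-/- Tau+ replicate 1, 2 or 3 or Ch25h-/- Tau- replicate 2 kept the call; leaving out any of the other 9 libraries ended it, with adjusted p from 0.0225 to 0.0872. Replicates 1 and 2 alone gave an adjusted p of 0.61 and replicates 3 and 4 alone 0.0719.

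Sc5d (chr9:42251595-42264256, minus strand), which sets a double bond late in the pathway, had in astrocytes 17.9, 25.5, 32.4 and 27.9 CPM in Ch25h+/+ Tau+ and 27.2, 18, 28.9 and 30.4 in Ch25h-/- Tau+. In Tau- it had 37.2, 33.1, 49.6 and 38.3 CPM in Ch25h+/+ and 31.4, 30.8, 32.8 and 45.8 in Ch25h-/-. Here 7 of 8 Tau+ libraries lay below every Tau- library. The means were 26 ± 5.4 and 37.4 ± 6.96 CPM (SD, n = 8 each), a log2 fold change of -0.53 (SE 0.14, edgeR adjusted p = 0.0405). Sc5d was also one of the members that differed between replicates 3-4 and 1-2 of the groups (log2 difference 0.37), and with that split as a term its adjusted p was 0.0093. It was called in neither set alone (adjusted p = 0.0906 in replicates 1 and 2 and 0.277 in replicates 3 and 4). The call was kept without Ch25h+/+ Tau+ replicate 3, Ch25h+/+ Tau- replicate 1 or 2, Ch25h-/- Tau+ replicate 3 or Ch25h-/- Tau- replicate 1 or 2 and lost without any of the other 10, with adjusted p from 0.0203 to 0.106.

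Npc2 (chr12:84754562-84773152, minus strand) in microglia went the other way. It had 164.8, 147.3, 123 and 205.5 CPM in Ch25h+/+ Tau+ and 164, 116.8, 114.4 and 166.3 in Ch25h-/- Tau+. The Tau- libraries had 104.2, 79.8, 112 and 131.7 CPM in Ch25h+/+ and 62.1, 82.8, 67.4 and 164.6 in Ch25h-/-. All 8 Tau+ libraries lay above the Tau- median. In Tau-, replicate 4 of each genotype lay within the Tau+ range, which starts at 114.4 CPM. The means were 150 ± 31.3 and 101 ± 34.9 CPM (SD, n = 8 each), a log2 fold change of 0.59 (SE 0.18, edgeR adjusted p = 0.0347). Replicates 1 and 2 alone gave 0.84 (adjusted p = 0.000605) and replicates 3 and 4 alone 0.35 (adjusted p = 0.691). The call was kept without Ch25h+/+ Tau+ replicate 2 or 3, Ch25h+/+ Tau- replicate 4, Ch25h-/- Tau+ replicate 2 or 3 or Ch25h-/- Tau- replicate 4 and lost without any of the other 10, with adjusted p from 0.00185 to 0.0834. Npc1, its partner in the lysosome, had 142 ± 15.4 CPM in Tau+ and 151 ± 40 in Tau- microglia (SD, n = 8 each). It and the other members high enough to test there, Ggps1 (-0.20), Insig2 (-0.20), Scap (-0.25) and Srebf2 (-0.09), were not called.

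**Figure D3:**
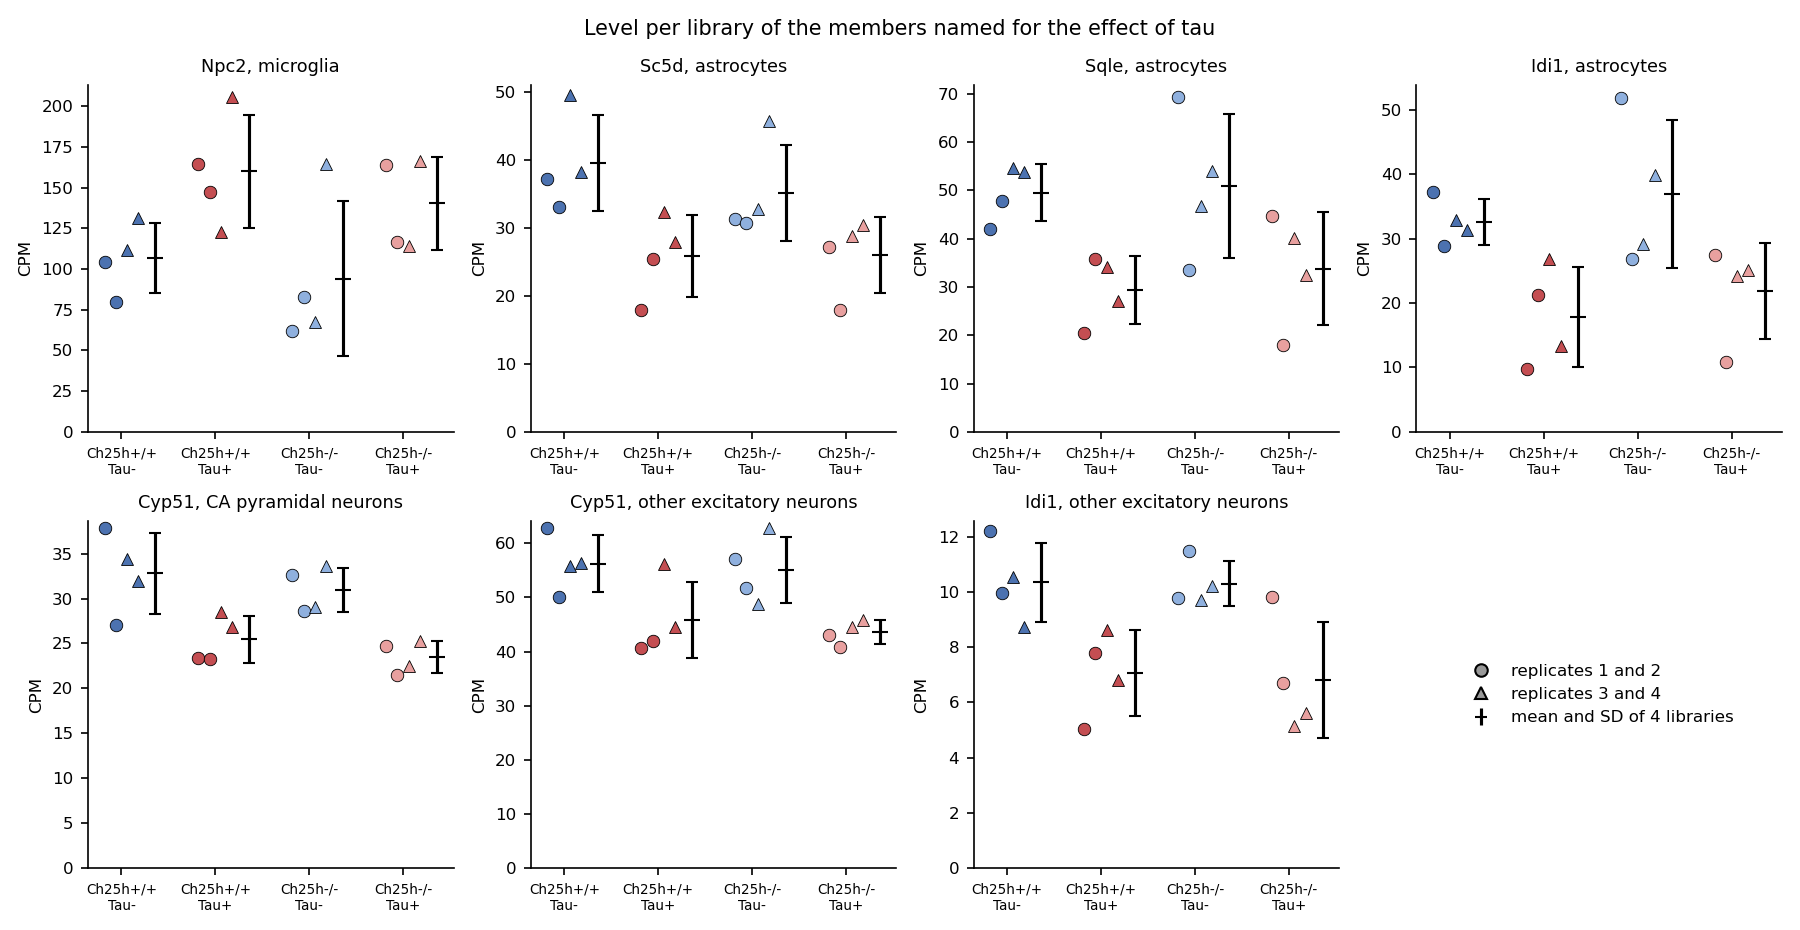
CPM of 7 gene and class pairs in each of 16 libraries, 4 per group, as points (replicates 1 and 2 as circles, 3 and 4 as triangles) with the group mean and SD beside them; the vertical axis is CPM, with its own scale in each panel. Tau+ libraries of Sc5d in astrocytes lie between 17.9 and 32.4 CPM and Tau- libraries between 30.8 and 49.6; Npc2 in microglia runs the opposite way.

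Cyp51 (chr5:4081145-4104746, minus strand), the enzyme that takes the first methyl group from lanosterol, had the smallest unadjusted p of any member in neurons. In CA pyramidal neurons it had 23.3, 23.3, 28.5 and 26.8 CPM in Ch25h+/+ Tau+ and 24.7, 21.5, 22.5 and 25.2 in Ch25h-/- Tau+. The Tau- libraries had 37.8, 27, 34.4 and 32 CPM in Ch25h+/+ and 32.6, 28.6, 29.1 and 33.6 in Ch25h-/-. Thus 7 of 8 Tau+ libraries were below every Tau- library, and Ch25h+/+ Tau+ replicate 3 overlapped Ch25h+/+ Tau- replicate 2. The means were 24.5 ± 2.33 and 31.9 ± 3.52 CPM (SD, n = 8 each), a log2 fold change of -0.38 (SE 0.08), which missed the threshold in edgeR's test (adjusted p = 0.0725). It passed with DESeq2 (adjusted p = 0.00242), with a term for the split (adjusted p = 0.0255) and without Ch25h+/+ Tau- replicate 2 (adjusted p = 0.0418). It missed without any of the other 15 libraries (adjusted p up to 0.183) and in replicates 1 and 2 alone (0.214) or 3 and 4 alone (0.193), and passed in 3 of the 24 alternatives run.

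Cyp51 in other excitatory neurons had 40.7, 41.9, 56.1 and 44.5 CPM in Ch25h+/+ Tau+ and 43.1, 40.9, 44.5 and 45.9 in Ch25h-/- Tau+. In Tau- it had 62.9, 50, 55.7 and 56.3 CPM in Ch25h+/+ and 57.1, 51.8, 48.8 and 62.7 in Ch25h-/-. Again 7 of 8 Tau+ libraries lay below every Tau- library, but the log2 fold change of -0.32 did not pass (edgeR adjusted p = 0.405). Idi1 there had 5, 7.8, 8.6 and 6.8 CPM in Ch25h+/+ Tau+ and 9.8, 6.7, 5.2 and 5.6 in Ch25h-/- Tau+. Its Tau- libraries had 12.2, 10, 10.5 and 8.7 CPM in Ch25h+/+ and 9.8, 11.5, 9.7 and 10.2 in Ch25h-/-. For Idi1 too, 7 of 8 Tau+ libraries were below every Tau- library, and the log2 fold change of -0.56 did not pass (edgeR adjusted p = 0.405).

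By role, the mevalonate steps had lower estimates for 8 of 8 genes in CA pyramidal neurons (median -0.38, 5 at p under 0.05) and for 7 of 8 in astrocytes (median -0.44, 4 at that p). Hmgcs1 had 18.6 ± 3.54 CPM in Tau+ and 26.9 ± 5.76 in Tau- CA pyramidal neurons, and 52.1 ± 25.9 against 74.3 ± 14.5 in astrocytes (SD, n = 8 each), with edgeR adjusted p of 0.16 and 0.23. Fdps, which makes farnesyl pyrophosphate, had log2 fold changes of -0.44 in CA pyramidal neurons and -0.73 in astrocytes, Mvk, the first mevalonate kinase, -0.48 and -0.56, and Pmvk, the kinase after it, -0.32 and -0.35. Ggps1, which leads to geranylgeranyl groups and away from sterols, was nearer 0 (-0.15 and -0.07). Acat2, which joins acetyl-CoA and has a closely similar neighbour with which reads may be shared, had -0.13 in CA pyramidal neurons and 0.00 in astrocytes. Mvd had -0.31 and -0.09.

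The squalene and sterol steps had lower estimates for 11 of 11 genes in astrocytes (median -0.53, 8 at p under 0.05) and for 10 of 11 in CA pyramidal neurons (median -0.32, 9 at that p). Msmo1 had 118 ± 35 CPM in Tau+ and 174 ± 30.9 in Tau- astrocytes, Nsdhl 34.9 ± 17.1 and 54.7 ± 11.8, and Hsd17b7, the reductase that acts with it, 12.7 ± 3.5 and 18.9 ± 3.19 (SD, n = 8 each). Hsd17b7 came nearest to the threshold of these, with a log2 fold change of -0.57 (SE 0.17, edgeR adjusted p = 0.0673). It passed with a term for the split of replicates (edgeR adjusted p = 0.0449) and without the filter on low counts (0.0469). DESeq2 did not call it, nor did edgeR in either set of replicates alone. Cyp51 in astrocytes had -0.58, Dhcr7, which makes cholesterol in the last step of a branch, -0.44, and Fdft1, which makes squalene, -0.41. Lss, which closes the rings, had -0.32, Tm7sf2, a sterol reductase, -0.31, and Ebp, the sterol isomerase, -0.17. In CA pyramidal neurons Tm7sf2 (0.01) was the exception, and in other excitatory neurons it had 0.23.

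The regulators had estimates of both signs, with 2 of 5 lower in astrocytes (median 0.04) and 4 of 5 in CA pyramidal neurons (median -0.16). Srebf2 lay between -0.18 and 0.12 in the 4 neuron classes, astrocytes and oligodendrocytes, and was not called. Scap, the escort of SREBP, had 0.06 in CA pyramidal neurons and 0.04 in astrocytes, and Insig2 had -0.07 and 0.11. Srebf1 had 0.04 in astrocytes and, in other excitatory neurons, 3.55 ± 0.474 CPM in Tau+ against 2.69 ± 0.365 in Tau- (SD, n = 8 each), a log2 fold change of 0.39 (edgeR adjusted p = 0.47). Insig1 had the largest negative estimates of the regulators: -0.54 in CA pyramidal neurons, -0.34 in other excitatory neurons and -0.43 in astrocytes, none called. Of the transport genes, Stard4, which carries cholesterol between membranes, had -0.58 in CA pyramidal neurons and -0.70 in astrocytes (edgeR adjusted p = 0.0856 there). Npc1 stayed between 0.02 and 0.07 in the 4 neuron classes, astrocytes and oligodendrocytes.

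Inhibitory neurons had smaller differences. Their 4 members at an unadjusted p under 0.05 were Cyp51, Hmgcs1, Fdps and Fdft1. Cyp51 ran from 28.3 to 40.7 CPM in Tau+ (median 36) and from 39.8 to 48.3 in Tau- (median 44.8). Its log2 fold change of -0.31 was not called (SE 0.08, edgeR adjusted p = 0.44). Hmgcs1 ran from 16.7 to 26.9 CPM (median 20.9) and from 21.5 to 35 (median 26.6), Fdps from 5.52 to 10.6 and from 9.04 to 13.8, and Fdft1 from 13.3 to 18.6 and from 14.2 to 22.6. Every one of the 4 overlapped between the states. DG granule neurons had 16 of 26 estimates lower with a median of -0.04, and Nsdhl was the most negative there (-0.37, SE 0.24, edgeR adjusted p = 0.74). Over 24 other ways of running the test that median ran from -0.067 to -0.002, with 13 to 20 members lower.

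Other members at an unadjusted p under 0.05 overlapped between the states by varying amounts. Fdps in astrocytes ran from 8.6 to 33 CPM in Tau+ (median 16.2) and from 18.5 to 41.6 in Tau- (median 30.5). Fdft1 there ran from 40.7 to 105 CPM (median 55.2) and from 57.6 to 104 (median 82.3), and its highest library of all was a Tau+ one. Msmo1 ran from 50.4 to 159 CPM (median 119) and from 115 to 212 (median 179). Hmgcs1 in CA pyramidal neurons ran from 11.8 to 22.9 CPM (median 19.3) and from 21.1 to 40.1 (median 25.5). In other excitatory neurons Fdft1 ran from 29.5 to 42.9 CPM (median 35.4) and from 41.7 to 48.1 (median 44.7), with a log2 fold change of -0.29 (SE 0.08, edgeR adjusted p = 0.41).

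The mean of the 19 synthesis enzymes, each first centred on its mean log2 CPM over the 16 libraries, gives 1 value per library and class. In CA pyramidal neurons it was -0.17 ± 0.18 in Tau+ and 0.17 ± 0.11 in Tau- (SD, n = 8 each), and 7 of 8 Tau+ libraries lay below every Tau- library. In astrocytes it was -0.23 ± 0.32 and 0.23 ± 0.23, with 5 of 8 below. Other excitatory neurons had 6 of 8 below, inhibitory neurons 5, DG granule neurons 2 and oligodendrocytes 1. The classes share their libraries. Ch25h+/+ Tau+ replicate 1 was the lowest library in CA pyramidal (-0.392), other excitatory (-0.289) and DG granule neurons (-0.145), astrocytes (-0.788), oligodendrocytes (-0.36) and precursors (-0.236). In inhibitory neurons Ch25h-/- Tau+ replicate 2 was lowest (-0.205). Ch25h+/+ Tau- replicate 3 was highest in DG granule (0.224), other excitatory (0.184) and inhibitory neurons (0.301), oligodendrocytes (0.367) and precursors (0.265). Its median mitochondrial share, 0.23%, was the highest of the libraries. Ch25h+/+ Tau+ replicate 1 had the lowest median UMIs per nucleus, 3646.5. The part of either in these values was not tested. Without Ch25h+/+ Tau+ replicate 1 the median log2 fold change of the 27 genes was -0.34 in astrocytes and -0.28 in CA pyramidal neurons. Without Ch25h+/+ Tau- replicate 3 that median was -0.40 and -0.28. Astrocytes had the widest range within 1 state, from -0.79 to 0.27 in Tau+. No test is given for this mean, since the genes were chosen with results of these data known.

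**Figure D4:**
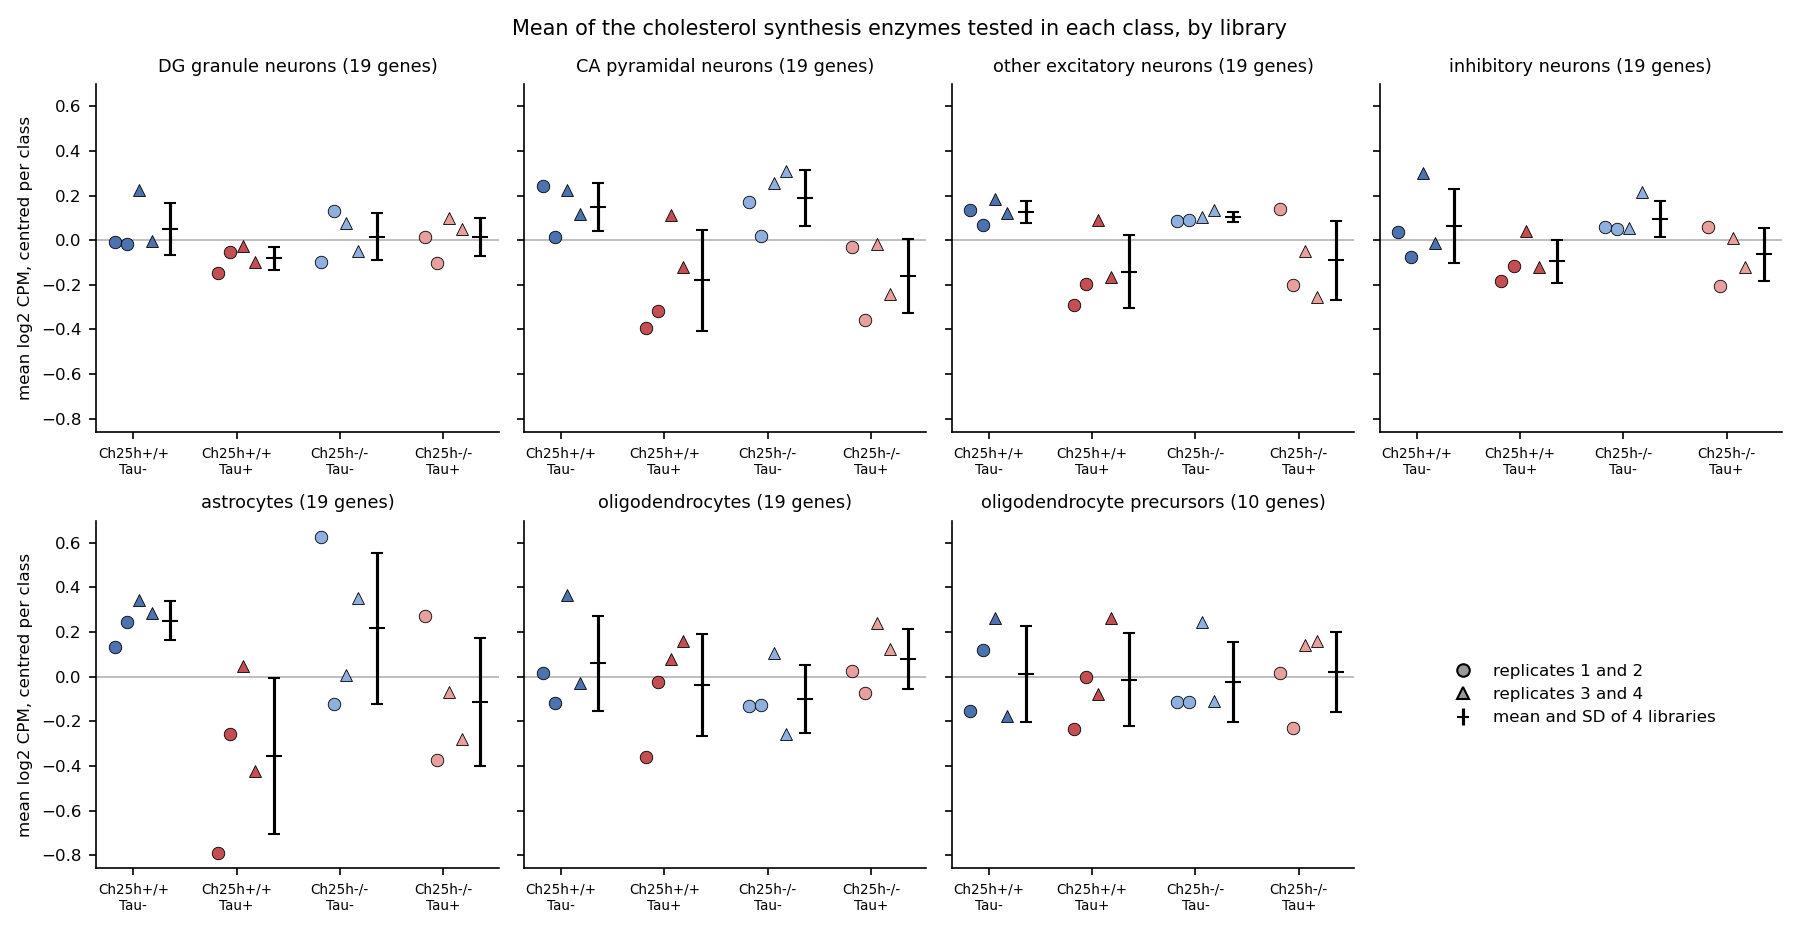
Mean centred log2 CPM of the synthesis enzymes (vertical axis; 19 genes, 10 in oligodendrocyte precursors) in each of 16 libraries by class and group; points are libraries (replicates 1 and 2 as circles, 3 and 4 as triangles), with the group mean and SD beside them. Tau+ and Tau- libraries separate most in CA pyramidal neurons, where 7 of 8 Tau+ libraries lie below every Tau- library, and overlap in oligodendrocytes.

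Markers of other cells moved with tau in the same astrocyte totals. Summed oligodendrocyte markers ranged from 82.6 to 234 CPM in Tau- and from 155 to 266 in Tau+ astrocytes, with 4 of the 8 tested higher at an unadjusted p under 0.05. Oligodendrocyte precursor markers ranged from 66.9 to 118 and from 97.4 to 181 CPM (2 of 4 higher), DG granule markers from 635 to 791 and from 742 to 1110 (2 higher and 1 lower of 6), CA pyramidal markers from 195 to 268 and from 253 to 297 (2 of 9 higher) and microglia markers from 112 to 160 and from 123 to 183 (2 of 6 higher). Inhibitory markers ranged from 573 to 868 and from 623 to 785 (2 of 5 lower). No list was at 0. In CA pyramidal neurons microglia markers ranged from 82.5 to 121 CPM in Tau- and from 99 to 125 in Tau+ (2 higher and 1 lower of 7). Oligodendrocyte markers there ranged from 128 to 146 and from 109 to 160 CPM (0 of 8 at that p), and astrocyte markers from 522 to 626 and from 486 to 650 (1 of 8 lower). In other excitatory neurons oligodendrocyte markers ranged from 89 to 144 CPM in Tau- and from 101 to 140 in Tau+ (3 of 8 higher), and microglia markers from 89 to 123 and from 106 to 139 (1 of 9 higher). In microglia, oligodendrocyte markers ranged from 129 to 443 CPM in Tau- and from 298 to 479 in Tau+ (2 of 6 higher), and astrocyte markers from 420 to 622 and from 361 to 485 (3 of 5 lower). The median UMI total of the microglia of a library was 406510 in Tau- and 810426 in Tau+, and microglia were 3.17% and 3.47% of nuclei on average in the Tau- groups and 5.02% and 5.27% in the Tau+ groups. The part of these in the astrocyte, neuron and microglia results was not tested.

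The make-up of CA pyramidal neurons also differed between groups. Their largest cluster held 37 ± 17.9% of the class in Ch25h-/- Tau- and 51.6% to 56.9% on average in the other groups. Within that cluster alone, 23 of 27 members had lower estimates in Tau+ (median -0.27) and 8 were lower at an unadjusted p under 0.05, against 3.67% of all genes there. Within the second largest cluster 25 of 27 were lower (median -0.28), 11 of them at that p, against 4.82%. In the largest cluster of other excitatory neurons 18 of 24 were lower (median -0.16), 5 at that p, against 3.74%. No member was called by edgeR in any of the 3 clusters, where few genes were called at all. These were 5 of 13773 in the largest CA pyramidal cluster, 4 of 13521 in the second and 3 of 11788 in the other excitatory cluster.

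Within each Ch25h genotype no member was called by edgeR, where 0.292% of all tests were called for tau in Ch25h+/+ and 0.181% in Ch25h-/-. Without adjustment, 37 of 183 tests in Ch25h+/+ and 36 in Ch25h-/- had p under 0.05, against 6.72% and 8.28% of the tests of all genes. DESeq2 called 0 and 2 members, the latter being Cyp51 and Insig1 in CA pyramidal neurons of Ch25h-/-. In astrocytes 23 of 27 estimates were lower in each genotype, with a median of -0.56 in Ch25h+/+ and -0.24 in Ch25h-/-. Of these, 14 and 5 were lower at p under 0.05, against 5.72% and 2.86% of all genes. In CA pyramidal neurons 24 of 27 were lower in each, with medians of -0.26 and -0.29 and 9 and 13 at that p, against 2.28% and 6.35%. In other excitatory neurons 22 and 21 were lower, 7 and 5 at that p, against 1.91% and 3.61%. Oligodendrocytes of Ch25h-/- had the other direction: 22 of 27 estimates were higher in Tau+, with a median of 0.18 and 4 at p under 0.05, against 4.36% of genes higher there, while in Ch25h+/+ 17 of 27 were lower with a median of -0.06. The shares of all genes with lower or higher estimates within each genotype, whatever their p, are not given here. Other values of the oligodendrocytes moved with tau. Oligodendrocytes were 10.9 ± 5.15% of nuclei in Ch25h-/- Tau- and 22 ± 2.9% in Ch25h-/- Tau+ (SD, n = 4 each). Over both genotypes the median UMI total of the class was 1767000 per library in Tau- and 3298410 in Tau+. Summed astrocyte markers in it ranged from 293 to 405 CPM in Tau- and from 238 to 326 in Tau+ (3 of 7 lower at an unadjusted p under 0.05), and inhibitory markers from 1930 to 2240 and from 1410 to 2290 (2 of 6 lower). The part of these in the oligodendrocyte values was not tested.

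In astrocytes of Ch25h+/+ the 14 were Stard4 (log2 fold change -0.99, SE 0.31), Fdps (-0.95), Nsdhl (-0.93), Idi1 (-0.87), Hmgcs1 (-0.82), Cyp51, Msmo1 and Sqle (each -0.76), Pmvk (-0.68), Dhcr7 and Sc5d (each -0.62), Hsd17b7 (-0.60), Fdft1 (-0.59) and Mvk (-0.56). In Ch25h-/- the 5 were Idi1 (-0.72), Mvk (-0.57), Sqle (-0.56), Hsd17b7 (-0.54) and Sc5d (-0.45), all of which are also among the 14. The adjusted p was 0.165 at lowest, for Stard4 in Ch25h+/+. The 4 members higher in Tau+ oligodendrocytes of Ch25h-/- were Stard4, Msmo1, Cyp51 and Ggps1. Msmo1 had 52.9 ± 4.4 CPM in Tau+ and 39.6 ± 5.02 in Tau- there (SD, n = 4 each), and its lowest Tau+ library, at 49.2, lay above its highest Tau- library, at 46.7. Its log2 fold change of 0.43 was not called (SE 0.19, edgeR adjusted p = 0.611). Stard4 had 8.37 ± 3.21 and 4.66 ± 2.12 CPM, Cyp51 46 ± 5.61 and 34.1 ± 7.94, and Ggps1 87.1 ± 11.2 and 72.5 ± 5.75, and each of these overlapped.

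The difference between the 2 genotypes' tau effects was tested as an interaction, and edgeR called no member and 0% of all tests; DESeq2 called no member. Without adjustment 7 of 183 member tests had p under 0.05, a share below the 4.18% of all tests. In astrocytes 17 of the 19 enzymes had a positive interaction, that is, a less negative tau effect in Ch25h-/-, but none had p under 0.05. The difference between the medians of -0.56 and -0.24 was not itself tested. In oligodendrocytes 24 of 27 members had a positive interaction (median 0.18), and Msmo1 alone was under that p (0.57, SE 0.26, edgeR adjusted p = 1). The share of all genes with a positive interaction in these classes is not given here. Synthesis enzymes also varied together between libraries of a group, as given below, so like signs are not separate observations. Insig1 in CA pyramidal neurons had the largest negative interaction of those 7. It had 4.36 ± 0.74 CPM in Ch25h-/- Tau+, 8.42 ± 1.12 in Ch25h-/- Tau-, 6.24 ± 1.79 in Ch25h+/+ Tau+ and 6.81 ± 1.99 in Ch25h+/+ Tau- (SD, n = 4 each). The Ch25h-/- groups did not overlap and the Ch25h+/+ groups did. Its tau effect was -0.94 in Ch25h-/- (edgeR adjusted p = 0.0752), and its interaction was -0.82 (SE 0.31, edgeR adjusted p = 0.673).

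Loss of Ch25h was compared within each tau state and averaged over both. No member was called by edgeR or by DESeq2 in any of the 3, and few genes were called at all: 0.0038% of tests in Tau+, 0.00285% in Tau- and 0.0105% averaged. Without adjustment 6 of 183 member tests in Tau+ had p under 0.05, against 3.23% of all tests, 6 in Tau-, against 3.47%, and 2 averaged, against 2.65%. The 2 were Ebp in astrocytes (log2 fold change -0.45, SE 0.20) and Ggps1 in other excitatory neurons (-0.15, SE 0.07), both at an edgeR adjusted p of 1. Averaged over tau, 101 of 183 estimates were higher in Ch25h-/- with a median of 0.01. In astrocytes of Tau+ libraries 21 of 27 were higher in Ch25h-/- (median 0.21), none at p under 0.05. The share of all genes higher in that comparison is not given here. Fdft1 in DG granule neurons had the smallest p of the interaction tests of members. It ran from 20.7 to 25.5 CPM in Ch25h+/+ Tau+ and 24.8 to 29.6 in Ch25h+/+ Tau-, but from 25.4 to 28.2 in Ch25h-/- Tau+ and 22 to 25.4 in Ch25h-/- Tau-. The interaction was 0.42 (SE 0.13, edgeR adjusted p = 1).

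**Figure D5:**
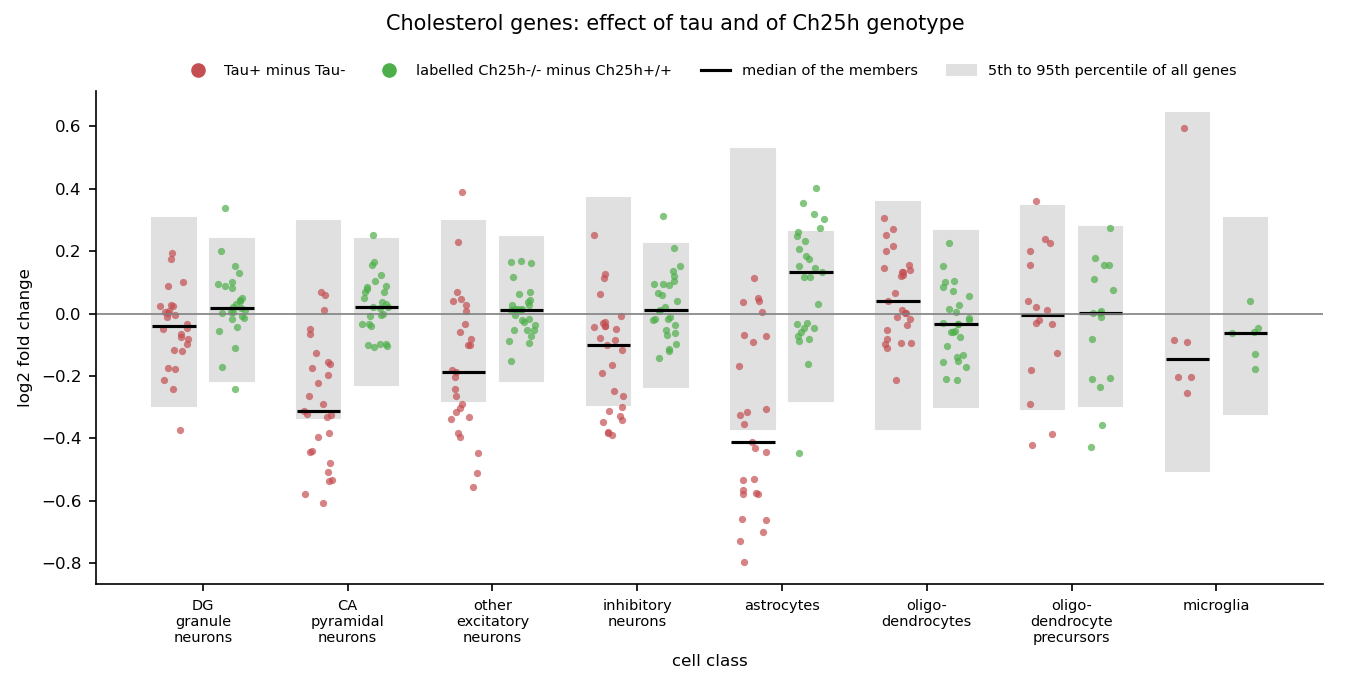
Log2 fold change (vertical axis) of each of the 27 genes in each of 8 classes (horizontal axis), for Tau+ minus Tau- averaged over both Ch25h genotypes and for Ch25h-/- minus Ch25h+/+ averaged over both tau states; points are genes, black lines are their medians and grey boxes span the 5th to 95th percentile of all genes tested. The medians for tau are -0.41 in astrocytes and -0.31 in CA pyramidal neurons, and those for Ch25h are 0.13 and 0.02.

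Of the 27 other genes of the pathway, which process SREBP, take up lipoproteins, move sterols or start isoprenoid branches, the tau comparison had lower estimates in 105 of 210 tests and a median of 0.00. At an unadjusted p under 0.05, 10 were lower and 8 higher, against 5.33% and 4.93% of the tests of all genes. In CA pyramidal neurons 10 of 27 were lower (median 0.02) and in astrocytes 15 of 27 (median -0.01), where the synthesis enzymes had 18 of 19 in each. Of these 210 tests 4 were called, 2 in astrocytes and 2 in microglia, beside the 1.2% called over all genes and classes, 3.3% in astrocytes and 8.94% in microglia. In astrocytes Gramd1c, a protein that moves sterol between membranes, rose from 33.2 ± 9.58 CPM in Tau- to 51.7 ± 12.8 in Tau+ (log2 fold change 0.66, edgeR adjusted p = 0.0294). Vldlr, a lipoprotein receptor, fell there from 13.3 ± 4.39 to 8.16 ± 0.909 CPM (-0.68, edgeR adjusted p = 0.0474). In microglia Soat1, which stores cholesterol as esters, rose from 79 ± 29.4 to 136 ± 37.6 CPM (0.81, edgeR adjusted p = 0.0243). Stard3, a lysosomal membrane protein that hands on cholesterol, fell there from 148 ± 17.4 to 99.1 ± 19.4 CPM (-0.61, edgeR adjusted p = 0.00245; SD, n = 8 each throughout). Vldlr rests on 373 UMIs in astrocytes, of which free RNA accounts for at most an estimated 21.7%. Its call was kept only without Ch25h+/+ Tau- replicate 4, Ch25h-/- Tau+ replicate 3 or Ch25h-/- Tau- replicate 4 and lost without any of the other 13 libraries (edgeR adjusted p from 0.0244 to 0.105), and replicates 3 and 4 alone gave -0.29 (adjusted p = 0.714). The Gramd1c call was lost without Ch25h+/+ Tau+ replicate 1, Ch25h+/+ Tau- replicate 2 or 4, Ch25h-/- Tau+ replicate 4 or Ch25h-/- Tau- replicate 2, 3 or 4 (at most 0.0755 after adjustment). The Soat1 call was lost without Ch25h+/+ Tau+ replicate 1, Ch25h+/+ Tau- replicate 3 or Ch25h-/- Tau- replicate 1 (at most 0.0544 after adjustment), and that of Stard3 was kept without each library in turn. In replicates 3 and 4 alone Soat1 had 0.65 (adjusted p = 0.61) and Stard3 -0.49 (adjusted p = 0.392). Replicates 1 and 2 alone kept all 3 of these calls. Vldlr had -1.07 there (edgeR adjusted p = 0.0117), Soat1 0.947 (0.00188) and Stard3 -0.707 (0.00118). Gramd1c was called by edgeR in neither set alone. It had 0.498 in replicates 1 and 2 (adjusted p = 0.189) and 0.803 in replicates 3 and 4 (adjusted p = 0.0691).

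After removal of the group means, the mean correlation (Pearson's r over 16 libraries) of the 171 pairs of synthesis enzymes was 0.39 in astrocytes, with 80.7% of pairs positive, and 0.31 in CA pyramidal neurons, with 81.3% positive. It was 0.26 in oligodendrocytes, 0.17 in other excitatory neurons, 0.15 in inhibitory neurons and 0.11 in DG granule neurons. In oligodendrocyte precursors, where 10 enzymes make 45 pairs, it was 0.06, with 60% of pairs positive. Removing also the split of replicates 1-2 and 3-4 gave 0.41 in astrocytes, 0.25 in CA pyramidal neurons, 0.17 in oligodendrocytes and 0.02 in precursors. Over all genes of each class the mean was 0.00. All genes of a library share its depth and nuclei, so these are descriptions without a test.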

How the data were processed

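The authors deposited, for each of 16 libraries, raw UMI counts of 32285 genes per barcode, per the file headers made with Cell Ranger 4; the submitters' processing notes name Cell Ranger 3.1.0 and mm10, and the labels a version 3.1 kit that reads the 3′ end. Barcodes with at least 500 UMIs, 300 genes and at most 5% mitochondrial UMIs were kept (147873). The 11045 with the highest Scrublet scores in their libraries were removed as doublets, a number preset at 0.8% per 1000 nuclei of a library. Nuclei were clustered (scanpy 1.11.5, 3000 variable genes without the genes described, 50 components, 20 neighbours, resolution 1), and 34 of 78 clusters, with 10648 nuclei, stayed unnamed because they were mostly doublets (26), had too few markers (5) or led with genes that go against the name (3). The free RNA of empty barcodes made up at most an estimated median of 1.22% (CA pyramidal neurons) to 5.55% (microglia) of UMIs. This limit comes from markers of other cell types. Counts were summed per library and class and tested with edgeR 4.0.16 (quasi-likelihood, TMM, low counts filtered with filterByExpr, R 4.3.3), 1 fit per class with all 16 libraries, 2-sided. DESeq2 1.42.0 was an alternative. The procedure was first tested on simulated data. The members and lists were chosen with earlier results of these data known. Values per library are given for each member called and, beyond these, for members with the smallest unadjusted p. Others tried were another scaling, no filter, nuclei with 1000 or more UMIs, doublets kept, replicates 1 and 2 or 3 and 4 alone, a term for that split, only the groups compared and each library left out.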

Additional observations from a re-analysis of the deposited data

Results flagged for a closer look

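In 4 of 56 groups of 4 libraries checked, 1 library stood far from the other 3; chance alone gives about 1 in 20. Sc5d in astrocytes of Ch25h-/- Tau- had 45.8 CPM in replicate 4, against 30.8 to 32.8 in the others. The mean of the synthesis enzymes, as centred log2 CPM, was high in 1 Ch25h+/+ Tau- library in DG granule neurons (0.224), in 1 Ch25h-/- Tau- library in inhibitory neurons (0.215) and in 1 Ch25h-/- Tau- library in oligodendrocyte precursors (0.247).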

How the results depend on the processing

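The count of members called for tau averaged over both genotypes was 4, and it ranged from 0 to 9 when 1 library was left out: 0 without replicate 1 or 4 of Ch25h+/+ Tau+, replicate 3 of Ch25h+/+ Tau- or replicate 4 of Ch25h-/- Tau+; 9 was reached without replicate 3 of Ch25h+/+ Tau+. It was 9 with DESeq2 (in astrocytes Fdps, Cyp51, Msmo1, Sc5d, Idi1 and Sqle, in CA pyramidal neurons Cyp51 and Hmgcs1, in microglia Npc2), 2 in replicates 1 and 2 alone (Npc2 in microglia and Nsdhl in astrocytes), 2 in replicates 3 and 4 alone (Hmgcs1 and Pmvk in inhibitory neurons, none of the 4), 6 with a term for that split, 3 without the filter on low counts (Npc2, Sc5d and, in astrocytes, Hsd17b7) and 4 with the other scaling, doublets kept or nuclei of 1000 or more UMIs. For tau in Ch25h+/+ the count of 0 became 1 without the filter and 1 with the split term, and ranged from 0 to 1 when 1 library was left out. For tau in Ch25h-/- it became 2 with DESeq2, 1 without the filter, 1 in replicates 1 and 2 alone and 2 in replicates 3 and 4 alone, and ranged from 0 to 1. Counts for Ch25h loss and for the interaction were 0 under each alternative run. The share of all genes called under each alternative is not given here. These counts thus do not show whether an alternative calls more members or more genes of every kind. Each of the 7 gene and class pairs given per library kept its sign in 24 of 24 alternatives. The pairs were picked by their p in these same libraries, which the alternatives reuse. A kept sign was therefore likely from the start and is not separate support. Of members lower at an unadjusted p under 0.05, a count added after the data were seen, astrocytes had 13 (6 in replicates 1 and 2 alone, 12 to 15 with 1 library left out), CA pyramidal neurons 16 (10 in replicates 3 and 4 alone, 8 in the largest cluster, 12 to 19), other excitatory neurons 10 (5 in the largest cluster, 8 to 13) and inhibitory neurons 4 (7 without the filter, 8 with doublets kept, 2 in replicates 1 and 2 alone, 4 to 6). The median log2 fold change of members for tau was 0.04 in oligodendrocytes (10 of 27 lower) and became -0.02 (14 of 27) without Ch25h+/+ Tau- replicate 2. In oligodendrocyte precursors it was -0.01 and took both signs, from -0.08 to 0.11. Depth limits microglia and oligodendrocyte precursors, where 6 and 16 members could be tested. No paired analysis was possible because the labels give no replicate numbers; those used follow accession order.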

Other observations

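A few members varied between single libraries in a like way in several classes at once. These were picked after their values were seen. With group means removed, Nsdhl had a mean correlation of 0.853 between pairs of the 4 neuron classes over 16 libraries (6 pairs), Ggps1 0.849 and Npc1 0.765. The median gene had 0.422, and 91.9%, 91.6% and 85.4% of 13731 genes lay below these 3 values, so many other genes share variation as strongly. Classes of 1 library share its depth and free RNA. Levels over all nuclei are CPM of all UMIs without TMM scaling. Nsdhl over all nuclei ran from 5.47 CPM in Ch25h-/- Tau+ replicate 4 and 5.65 in Ch25h+/+ Tau+ replicate 2 to 16.5 in Ch25h-/- Tau- replicate 1. Both low libraries are Tau+, but Ch25h-/- Tau+ replicate 1 had 14.6. Npc1 was lowest in Ch25h+/+ Tau- replicate 3 in 6 of 8 classes; in CA pyramidal neurons it had 23.2 CPM there and 32.9 to 40.6 in the other 15 libraries. Ggps1 was lowest in Ch25h-/- Tau- replicate 1 in 6 of 8 classes, with 47 CPM in CA pyramidal neurons, and 53.4 to 85.5 in the others. Srebf2 was lowest in Ch25h+/+ Tau+ replicate 1 in 6 classes, with 51.3 CPM in CA pyramidal neurons and 64.4 to 84.2 in the others. Srebf1 (-0.10) and Lss (-0.06) showed no such shared variation. Srebf1 had fewer counts, 374 to 578 UMIs per neuron class, against 707 to 1979 for Nsdhl and 1142 to 2828 for Lss. The part of low counts in this was not tested.

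Between replicates 3-4 and 1-2 of the groups, 5 of 27 members differed in CA pyramidal neurons by edgeR's test (Insig2, Fdps, Dhcr7, Sc5d and Npc2), where 17.6% of all genes did. In oligodendrocytes 4 of 27 did (Sqle, Ebp, Dhcr7 and Npc2; 15.8% of all genes), in astrocytes 2 of 27 (Sc5d and Npc2; 12.8%), in other excitatory neurons 2 of 27 (Dhcr7 and Ebp; 14.4%) and in inhibitory neurons 1 of 27 (Ggps1; 10.6%). No member did in DG granule neurons (26 tested; 16.5% of all genes), oligodendrocyte precursors (16 tested; 7.51%) or microglia (6 tested; 7.42%). The shares of members were near or below those of all genes.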
